A study of Mus musculus with 2 samples.

Results

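Intronic peaks of short genes are stretches of open chromatin that lie inside, and away from the start of, protein-coding genes shorter than 100 kb. A peak of an animal's larger deposited list was a member when its midpoint lay in such a gene and in no longer protein-coding gene, in no exon of a protein-coding gene, and over 1 kb from every start of a protein-coding transcript in GENCODE M21 on mm10. Replicate 1 had 19438 members of 140127 peaks (13.9%) and replicate 2 had 15095 of 114404 (13.2%), a mean of 17267 ± 3071 (SD, n = 2). The chromatin was mapped by DNase-seq, in which the nuclease DNase I cuts accessible DNA, in cerebellum tissue of 2 male B6CASTF1/J mice aged 36 days. These mice are F1 hybrids of C57BL/6J and CAST, for which the labels name no treatment, with 1 library per animal. Both form 1 group. The labels number the males and the biological replicates separately, whereas the donor field is identical in both, so how independent the libraries are is not settled, and the SDs below may be partly technical. No test was run, since an exact paired permutation test over 2 animals cannot give a two-sided p below 0.5. Every comparison below is a description within each animal's own map.

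Introns are removed from the transcript, but their DNA can hold enhancers, insulators and alternative promoters, bound by transcription factors that keep nucleosomes away. The first intron adjoins the promoter and is commonly the longest of a gene. A footprint is a short stretch inside open chromatin that is cut less than its surroundings, as when a bound protein shields it. The cerebellum consists mostly of granule neurons, with Purkinje cells, inhibitory interneurons and glia. In a bulk tissue, the number of cells in which a site is open and its openness per cell cannot be told apart.

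The 3 strongest members in first introns and 2 of the strongest in later introns are shown with the reference sequence of mm10, on the strand of the host gene and 5′ to 3′, because they show how footprints fall into short blocks inside a peak. Capitals are bases inside footprints of both animals. In first introns these are chr11:98773861-98774160 (minus strand, the middle part of the peak) in Nr1d1, which encodes the circadian repressor REV-ERB alpha, chr10:60820621-60820880 (minus) in Unc5b, a netrin receptor, and chr11:114685121-114685320 (plus) in Ttyh2, a member of the tweety family of membrane proteins. In later introns these are chr19:10709501-10709660 (plus) in Vps37c, a subunit of the ESCRT-I sorting complex, and chr11:120261541-120261720 (plus) in Bahcc1, a protein with a chromatin-binding BAH domain.
Nr1d1: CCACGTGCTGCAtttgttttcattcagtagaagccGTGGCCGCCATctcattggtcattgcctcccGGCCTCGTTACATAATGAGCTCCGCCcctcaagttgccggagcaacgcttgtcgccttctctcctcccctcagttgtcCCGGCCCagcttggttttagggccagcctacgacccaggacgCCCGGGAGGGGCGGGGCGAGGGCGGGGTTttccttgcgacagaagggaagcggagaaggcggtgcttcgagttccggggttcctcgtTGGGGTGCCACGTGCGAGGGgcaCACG
Unc5b: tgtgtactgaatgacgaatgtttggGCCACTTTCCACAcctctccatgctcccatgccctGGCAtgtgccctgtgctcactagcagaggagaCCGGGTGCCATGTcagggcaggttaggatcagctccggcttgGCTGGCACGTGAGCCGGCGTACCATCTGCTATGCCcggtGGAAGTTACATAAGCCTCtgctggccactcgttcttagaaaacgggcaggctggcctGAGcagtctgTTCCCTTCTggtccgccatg
Ttyh2: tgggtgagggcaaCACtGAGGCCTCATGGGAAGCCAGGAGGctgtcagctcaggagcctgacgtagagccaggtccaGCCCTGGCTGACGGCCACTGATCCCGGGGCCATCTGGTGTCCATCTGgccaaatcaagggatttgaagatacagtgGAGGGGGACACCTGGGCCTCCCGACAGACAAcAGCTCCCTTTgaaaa
Vps37c: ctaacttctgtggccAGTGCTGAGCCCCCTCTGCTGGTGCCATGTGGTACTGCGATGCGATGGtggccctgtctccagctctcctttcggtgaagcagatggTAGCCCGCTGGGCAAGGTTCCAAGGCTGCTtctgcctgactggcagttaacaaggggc
Bahcc1: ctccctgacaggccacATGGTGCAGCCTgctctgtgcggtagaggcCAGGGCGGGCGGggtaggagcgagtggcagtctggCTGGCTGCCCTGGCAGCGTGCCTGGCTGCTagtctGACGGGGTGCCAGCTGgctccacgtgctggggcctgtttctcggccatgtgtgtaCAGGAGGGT

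In these 5 sequences, footprints of both animals covered between 78 bases (of 160, in Vps37c) and 115 bases (of 200, in Ttyh2). Ttyh2 held the E-box CAGATG, a site type bound by NeuroD factors, 2 times, both wholly in capitals. Unc5b held it 1 time, also in capitals, whereas the copy in Vps37c lay outside the shared footprints. Nr1d1 held the SP/KLF box GGGCGG 3 times, of which 2 were in capitals, and Bahcc1 held it 2 times, both in capitals.

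Vps37c had the highest member of both animals, with a height of 59.4 in replicate 1 and 28.4 in replicate 2. It lay in the second of 4 introns, 20830 bp from the start of the host transcript. Height is the signal value the authors deposited for each peak. It is used within an animal's own list, since the scaling between the lists is not given in the sources used here. The member of Bahcc1 reached 31.2 and 17.0 in the third of 27 introns. In Triobp, an actin-binding protein gene, intron 13 of 24 held a member of 27.1 and 18.1. Mmp24, a membrane-bound metalloproteinase gene, had one of 25.2 and 18.5 in intron 4 of 8. The member of Sptbn4, the spectrin of axon initial segments, reached 26.9 and 14.8 in intron 33 of 35, with its midpoint 5 bp from the intron's end. The 11 strong members named here and below lay at the top of both lists, the lowest being that of Sptbn4 at percentile 98.7 in replicate 2. Each of their hosts also had a peak at its promoter in both animals. This was common, as 89.6% and 85.9% of all members with 1 host lay in a host with a promoter peak in the same animal.

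Among first introns, the member with the best mean rank of height over both animals was that of Nr1d1, at 34.8 and 19.8 and 1322 bp from the start. Ttyh2 had one of 31.1 and 20.5 at 9790 bp, and Unc5b one of 30.1 and 22.0 at 10830 bp. The Unc5b member lay 110 bp from the start of a non-coding transcript of a protein-coding gene. Zfp13, a zinc finger gene, had a member of 29.5 and 17.6. The first intron of Nuak1, an AMPK-related kinase gene, held one of 29.0 and 16.3. That of Mnt, which encodes a MAX-binding repressor, held one of 27.4 and 16.6 at 1381 bp from the start. GC content of the 151 bases around the midpoint ranged from 54.3% in Nuak1 to 70.9% in Mnt over these 11, against a median of 55.0% and 53.6% over all members.

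Members occupied their introns at 60.8 and 47.2 per Mb in replicates 1 and 2 (mean 54.0 ± 9.60, SD, n = 2), over 319.8 Mb of intron that met the rule, 12.1% of the ungapped genome. Introns of protein-coding genes of 100 kb or longer held 52.8 and 45.3 peaks per Mb under the same distance to starts. Short genes were the denser class in each animal, but the ranges of the classes over the animals overlapped. The median height of members was 0.824 and 0.938, above the 0.672 and 0.770 of intronic peaks of long genes and the 0.537 and 0.672 of intergenic peaks. Promoter peaks, with midpoints within 1 kb of a coding start, had medians of 1.95 and 1.81. Members held a footprint in 83.9% of cases in replicate 1 and 79.0% in replicate 2, against a background of 78.4% and 72.5% over all peaks. The share was 80.7% and 74.1% in intronic peaks of long genes and 73.6% and 68.2% in intergenic peaks. These classes differ in height, and at matched height the order was not kept. Between the 25th and 50th percentile of an animal's peaks, members had 83.0% and 77.6%. Intronic peaks of long genes had 84.7% and 78.4% there, and intergenic peaks 86.9% and 80.6%. Below the 25th percentile the shares were 48.9% and 31.3%, 48.0% and 31.1%, and 41.5% and 26.2%, in the same order of classes.

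First introns held more members per base than later introns in both animals. Of the members with 1 host gene and a place in an intron of its main transcript, 17919 and 13943, first introns held 6507 and 5019, or 36.3% and 36.0%, while they made up 27.2% of the ranked intron bases. The density was 81.2 and 62.6 members per Mb in first introns and 53.1 and 41.5 in later introns. The ratio was 1.53 in replicate 1 and 1.51 in replicate 2 (mean 1.52 ± 0.015, SD, n = 2), so it differed between the animals by far less than the densities themselves. Density fell over the first ranks of intron order: the second intron had 60.8 and 46.6 members per Mb, the third had 55.8 and 42.5, and introns from the fourth on had 49.9 and 39.6. The last intron of a gene, which is also counted under its rank, had 54.2 and 42.2, above the introns from the fourth on. The intron of genes that have only 1 held 71.6 and 55.1 per Mb. A further 334 and 249 members lay in several overlapping host genes and 1185 and 903 outside the introns of the main transcript; these were counted as members but given no intron order.

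**Figure D1:**
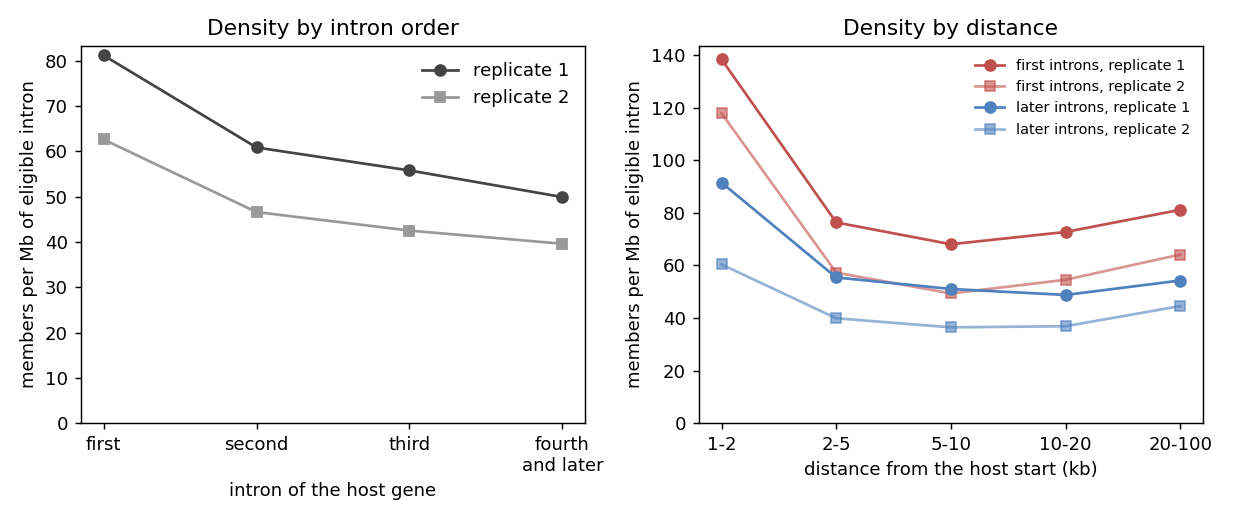
Members per Mb of eligible intron by intron order (left) and by distance from the host start in kb (right), with 1 point per animal and no error bars. Density falls from 81.2 and 62.6 in the first intron to 49.9 and 39.6 from the fourth on, and the first-intron line of each animal stays above its later-intron line in every distance class.

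The difference was also seen within classes of distance from the start of the host's main transcript. Distance to other starts was not held fixed in these classes. Within 1 to 2 kb of the start, first introns had 138 and 118 members per Mb and later introns 91.5 and 60.4. At 5 to 10 kb the densities were 68.0 and 49.3 against 51.0 and 36.4. At 20 to 100 kb they were 81.1 and 64.1 against 54.3 and 44.5. Both kinds of intron were thus densest next to the start, and first introns were denser than later ones in each of the 5 classes and both animals. Stretches listed by the authors at a false discovery rate below 0.05 were read over all distances together. They covered 2.19% and 1.74% of first-intron bases and 1.44% and 1.16% of later-intron bases. They come from the same libraries as the peaks, so they are no separate support, and they were not divided by distance.

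The excess in first introns was seen in hosts whose promoter was open and was small or absent in the others. A host counted as having a promoter peak when a peak midpoint lay within 1 kb of one of its coding starts, so that no member could itself be that peak. Hosts with a promoter peak had 94.2 and 73.6 members per Mb in first introns and 59.7 and 46.5 in later introns. In hosts without one, the values were 27.9 and 25.9 in first introns and 29.6 and 26.8 in later introns, so that both kinds of intron were about equally sparse. Counting only members 5 kb or more from the start, a choice made after seeing the data, hosts with a promoter peak had 81.2 and 61.0 in first introns against 58.1 and 45.7 in later introns. Hosts without one then had 31.4 and 31.2 against 30.5 and 27.4. When each host was sorted by the promoter peaks of the other animal instead, hosts without one had 33.9 and 23.2 in first introns and 33.8 and 23.9 in later introns. The difference between the host groups was not tested.

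Hosts with a promoter peak numbered 10964 and 10396 of 16194 and contained 89.6% and 85.9% of the members that have 1 host. Of these hosts, 51.2% and 46.9% had a member, against 20.4% and 20.4% of hosts without a promoter peak. These shares do not allow for intron length. The hosts with a promoter peak had 245.2 and 235.2 Mb of eligible intron in total. The 5230 and 5798 hosts without a promoter peak had 68.8 and 78.9 Mb, which is less per host. Members in the hosts without one were also lower, with median heights of 0.694 and 0.780 against 0.835 and 0.968.

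**Figure D2:**
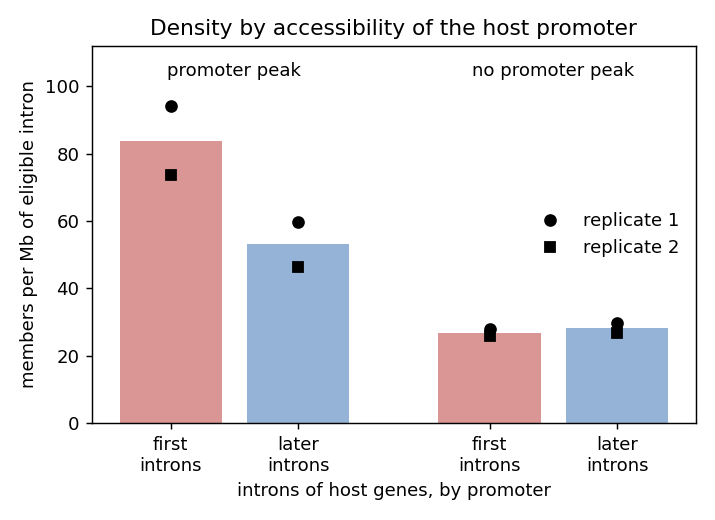
Members per Mb in first and later introns of host genes with and without a promoter peak; bars are means of the 2 animals and symbols are the animals. First introns reach 94.2 and 73.6 per Mb with a promoter peak, whereas all 4 values without one lie between 25.9 and 29.6.

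Members of first introns were not the higher ones. Their median height was 0.791 and 0.899, against 0.840 and 0.958 in later introns, a ratio of 0.942 and 0.938. The upper quartile was 1.60 and 1.74 in first introns and 1.96 and 1.95 in later introns. This order depended on the distance from the start. At 5 to 10 kb the medians were 0.759 and 0.918 in first introns and 0.900 and 1.14 in later introns. At 20 to 100 kb the order was the opposite, with 0.921 and 1.03 in first introns and 0.829 and 0.889 in later introns. Within 1 to 2 kb the animals disagreed, with 0.694 against 0.650 in replicate 1 and 0.770 against 0.978 in replicate 2.

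**Figure D3:**
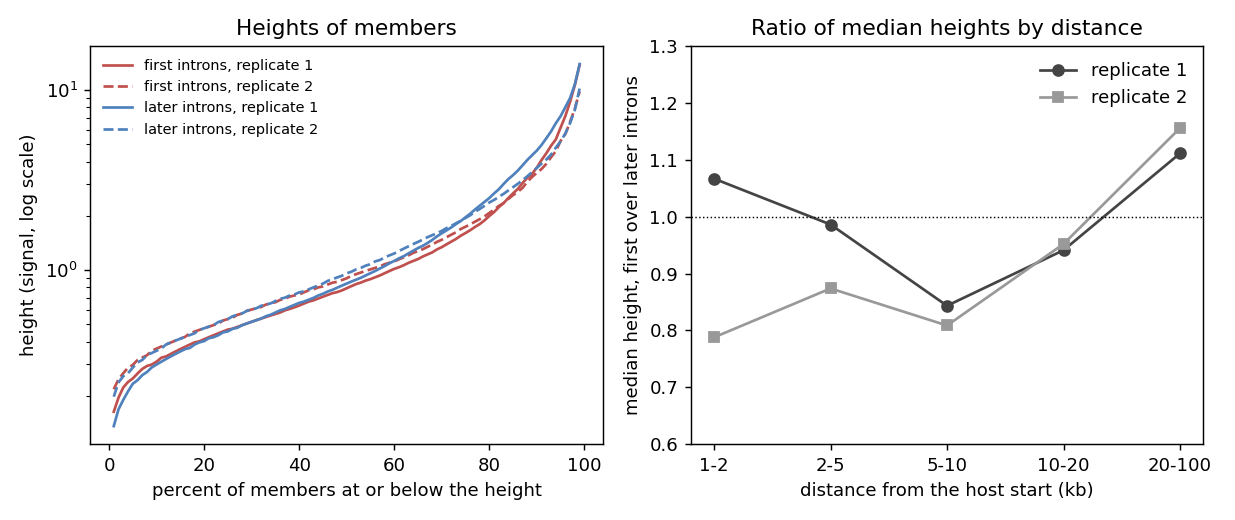
Left, heights of members (deposited signal, log axis) against the percent of members at or below them, for first and later introns of each animal; right, the ratio of median heights of first over later introns by distance from the host start. The curves lie close together, and the ratio is below 1 at 5 to 20 kb and above 1 beyond 20 kb in both animals.

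Footprints were slightly less frequent in first-intron members. A footprint lay in 82.7% and 77.0% of them, against 84.8% and 80.2% of later-intron members, a difference of -2.10 and -3.15 percentage points (mean -2.62 ± 0.740, SD, n = 2). The footprints covered 15.7% and 13.3% of the peak bases in first introns and 18.9% and 15.7% in later introns. Per member there were 1.99 and 1.89 footprints in first introns and 2.11 and 2.02 in later introns. The share with a footprint rose steeply with height, from 48.9% and 31.3% of members below the 25th percentile of an animal's peaks to 100% in both animals above the 90th percentile. Between the 25th and 50th percentile it was 81.4% and 74.4% in first introns and 84.3% and 79.6% in later introns. Between the 50th and 75th it was 92.6% and 93.8% against 95.0% and 96.2%. The share in first introns was thus lower at matched height in each class below the 90th percentile. By distance from the start the order was not constant. At 20 to 100 kb footprints were more frequent in first introns, at 87.5% and 80.8% against 85.4% and 78.8% in later introns. Within 1 to 2 kb the animals disagreed, with 77.3% against 76.1% in replicate 1 and 66.4% against 72.4% in replicate 2.

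**Figure D4:**
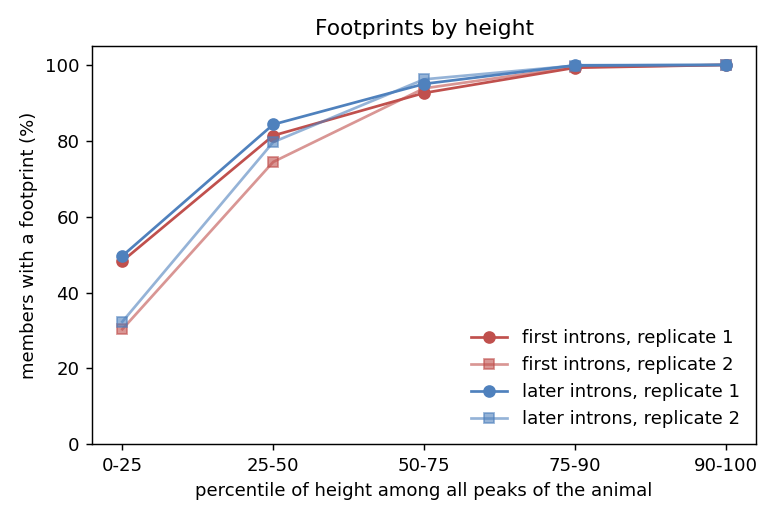
Percent of members with a footprint by class of height, given as the percentile among all peaks of the animal, for first and later introns of each animal. Below the 25th percentile the share is 48.3 and 30.3% in first introns and 49.6 and 32.3% in later introns, and all lines reach 100% above the 90th percentile.

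Sequence in the members differed between first and later introns for a few motifs, read in the 151 bases around each midpoint on both strands. A match describes the letters and shows no binding by itself. The CTCF core, the consensus of the insulator protein CTCF, lay in 0.446% and 0.677% of first-intron members and in 1.38% and 2.07% of later-intron members. It was found in 0.00684% of 306888 windows of the same length in the same introns outside peaks. Of its 213 and 246 occurrences in whole members, 92.0% and 80.1% had their centre in a footprint, against 86.9% and 75.5% in all other peaks. GGGCGG, the SP/KLF box of many CpG-rich promoters, went the other way, with 10.04% and 8.91% of first-intron members and 7.41% and 6.15% of later-intron members. Promoter peaks had it in 40.8% and 40.4% and the windows outside peaks in 1.67%. Of first-intron members, 6.76% and 7.25% lay within 1 kb of a RefSeq mRNA start, although over 1 kb from every GENCODE coding start, and of later-intron members 2.87% and 2.81%.

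The ZIC motif, the NeuroD E-box and the NFI core were more frequent in members than outside peaks. They were about as frequent in other peaks far from promoters, or for the NFI core more frequent in intronic peaks of long genes. This was not particular to these motifs. The E-box CAGCTG lay in 14.5% and 12.9% of members against 6.29% of windows, and the RFX site GTTGCCA in 3.17% and 3.45% against 1.34%. The ZIC motif CAGCAGG lay in 14.2% and 14.1% of members, against 3.63% of windows outside peaks and 13.8% and 13.8% of intronic peaks of long genes. The NeuroD E-box CAGATG lay in 20.8% and 22.6%, against 11.4% of windows, 23.2% and 25.5% of intronic peaks of long genes and 20.5% and 22.6% of intergenic peaks. The core TTGGCA of nuclear factor I (NFI) sites lay in 17.2% and 20.01%, against 7.06% of windows, and was more frequent in intronic peaks of long genes, at 21.4% and 24.8%. Members had a median GC content of 55.0% and 53.6% and the windows of 43.7%, and the part of base composition in these shares was not tested. The homeobox core TAATTA was rarer in members, at 1.45% and 1.85%, than in the windows, at 4.61%. The MEF2, ROR/ERR and SOX motifs were also rarer in members than in the windows. Of the NFI cores in whole members, 38.9% and 33.7% had their centre in a footprint, against 33.8% and 30.6% in all other peaks. Of the homeobox cores it was 7.62% and 6.81%, against 6.83% and 6.60%.

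Members were spread over many genes. Of 16194 host genes with eligible intron, 6678 had a member in replicate 1 and 6060 in replicate 2, and 5525 had one in both. Hosts with 5 or more members numbered 1092 and 741 and contained 48.0% and 36.7% of the members that have 1 host. The 8 hosts with the most members in both animals were Acot7 (21 and 22 members), an acyl-CoA thioesterase gene, Nfic (56 and 20), an NFI factor, Igf2r (20 and 20), the receptor of insulin-like growth factor 2, Grm4 (26 and 19), a metabotropic glutamate receptor, Camk2b (25 and 19), a kinase subunit of synapses, Bsn (19 and 21), the presynaptic scaffold bassoon, Trim62 (32 and 18), a RING finger gene, and Nuak1 (18 and 18). First introns held 13 and 15 of the members of Bsn, 13 and 13 of those of Nuak1 and 21 and 15 of those of Trim62. In Acot7 and Grm4 later introns held most, 14 and 13 in Acot7 and 21 and 15 in Grm4. Nfic stood apart between the animals, with 56 members in replicate 1 and 20 in replicate 2, and footprints in them numbering 95 and 63.

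Among the 633 hosts with at least 5 members in both animals, the 5 with the most members per kb of eligible intron were Nptx1, Calm3, Phyhip, Panx2 and Tprn. Nptx1, a neuronal pentraxin gene, had 7 and 5 members in 3.53 kb, all in later introns. Calm3, a calmodulin gene, had 8 and 8, of which 7 and 7 were in its first intron. Phyhip had 11 and 10, and Panx2, a pannexin channel gene, had 15 and 12. Tprn had 6 and 5 members, all in its first intron, with a highest height of 19.4 and 12.4.

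The tissue label was checked on promoters: a promoter peak was present in both animals for each of the 20 listed granule cell genes, but for only 2 and 2 of 20 liver genes and 3 and 2 of 16 microglia and macrophage genes. Of all hosts, 10964 and 10396 of 16194 had one. Promoters of the other lists are not given here. In introns, granule cell genes had the highest density of the 14 lists, with 59 and 57 members in 227.5 kb, or 259 and 251 per Mb. All hosts together had 60.8 and 47.3 per Mb. Of the 14 granule cell genes with eligible intron, 12 and 12 had a member (85.7% and 85.7%), against 41.2% and 37.4% of all hosts. Pax6, the transcription factor of granule cell precursors, had 12 and 15 members in 13.0 kb, with a highest height of 6.11 and 4.94 and none in its first intron. Fat2, a giant cadherin gene, had 10 and 12, of which 7 and 10 lay in its first intron. Etv1, an ETS factor, had 10 and 9, and Slc17a7, the vesicular glutamate transporter, 6 and 3. Gabra6, the granule cell subunit of the GABA-A receptor, had 4 and 3 members, all in later introns. Barhl1 had 3 and 0 and Uncx 0 and 3, so these differed between the animals. Cbln3 had none in either, with 0.05 kb of eligible intron.

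Synapse genes had 98 and 78 members, or 194 and 154 per Mb. Of their 15 hosts, 14 and 14 had a member, against 41.2% and 37.4% of all hosts. Synapse hosts had a median of 28.4 kb of eligible intron and all hosts 11.7 kb. Camk2b held 25 and 19 of the synapse members and Bsn 19 and 21. Besides Camk2b and Bsn, Shank3, a postsynaptic scaffold gene, had 13 and 6 members, all in later introns. Snap25, a fusion protein of synaptic vesicles, had 6 and 7, of which 6 and 6 lay in its first intron. Vamp2 had none in either animal. Immediate early genes, which neurons switch on when active, had 22 and 18 members, or 174 and 142 per Mb, in 10 and 9 of 14 hosts. Of these members, 8 and 5 lay in first introns and 3 and 4 in later introns of the main transcript. The rest lay outside its introns and so had no intron order. Nr4a3 had 6 and 5, Dusp1 5 and 4, and Nr4a2 3 and 3 with a highest height of 6.04 and 5.42. No member of Dusp1 or Nr4a2 lay in an intron of its main transcript. Dusp1 held 50.6 kb of the 126.6 kb of eligible intron in this list. Arc, with 0.43 kb of eligible intron, had none in either.

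Of the other 11 lists, 8 lay below all hosts in both animals; the exceptions were the lists of Purkinje cells, of astrocytes and of forebrain neurons. Purkinje cell genes had 36.8 and 50.9 members per Mb, with 3 and 3 in Gad1, the enzyme of GABA synthesis, 2 and 3 in Lhx1 and none in Homer3. Interneuron and unipolar brush cell genes had 45.4 and 33.3, with 6 and 3 in Kit and none in Cck. Astrocyte and Bergmann glia genes had 59.6 and 77.5, and Gdf10 of Bergmann glia had 2 and 2 members. Oligodendrocyte genes had 53.2 and 28.7, microglia and macrophage genes 40.9 and 30.7, and endothelial and mural genes 50.5 and 34.5. Pecam1, an adhesion molecule of endothelium, had 10 and 7 members with a highest height of 19.5 and 11.0, while Cdh5, also of endothelium, had none in 36.0 kb. Housekeeping genes had 52.8 and 37.0 per Mb, with none in Actb, and forebrain neuron genes 74.3 and 52.5, of which Bcl11b held 9 and 7 of 17 and 12 members. Liver genes had 51.7 and 42.3, striated muscle genes 32.1 and 45.0 and germline genes 44.6 and 29.7. Each of these lists has at most 19 hosts, so a few genes set its value.

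**Figure D5:**
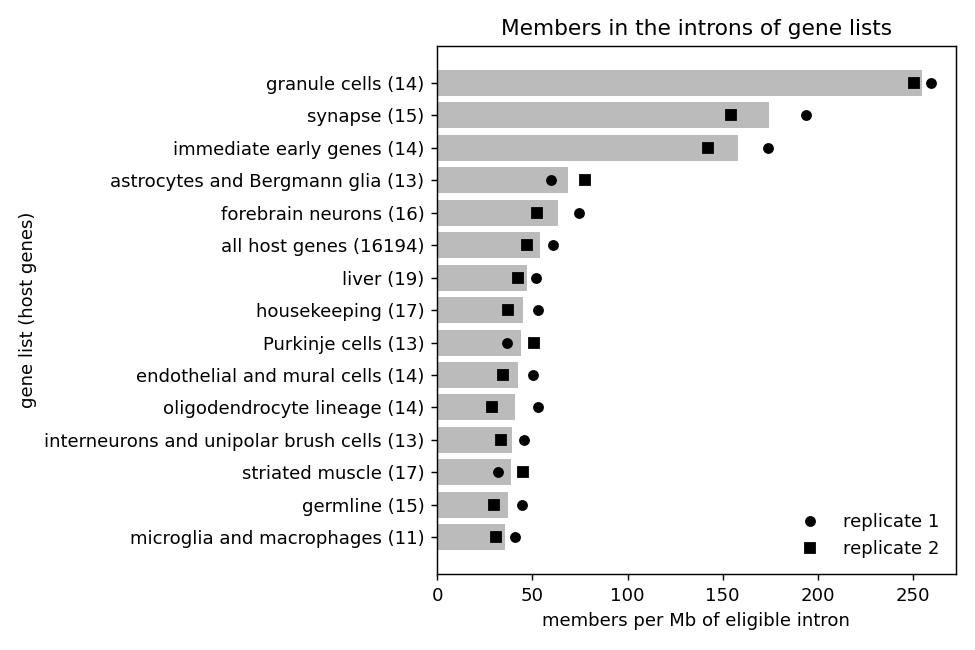
Members per Mb of eligible intron for each gene list and for all hosts, with the number of host genes in parentheses; bars are means of the 2 animals and symbols are the animals. Granule cell, synapse and immediate early genes lie at 142 or above in both animals and every other list at 77.5 or below.

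Of the members, 63.2% in replicate 1 and 81.4% in replicate 2 were shared, that is they touched one of the other animal's peaks, at 1 bp or more, against a background of 65.8% and 80.4% of all peaks. Shared members were higher, with a median of 1.37 and 1.16, than unshared ones, with 0.450 and 0.435. Among 12141 pairs of overlapping members the heights of the animals had a Spearman rho of 0.90, a description over sites of the same genome. First-intron members were shared in 61.8% and 79.8% of cases and later-intron members in 64.2% and 82.2%. Of the unshared members, 9.17% and 13.8% touched a stretch listed at a false discovery rate below 0.05 in the other animal. Members on the X chromosome were sparse and low, at 31.7 and 27.4 per Mb with median heights of 0.504 and 0.548, against 62.4 and 48.4 per Mb and 0.835 and 0.958 on autosomes. Both animals are male and so carry 1 copy of the X, and the part of copy number in these values was not tested. Other classes of peaks on the X were not compared.

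At the 1 kb limit of the rule, the animals differed in the order of heights, while footprints were more frequent outside it. Members within 250 bp outside the limit of 1 kb from a start had median heights of 0.715 and 0.839, and intronic peaks of the same genes within 250 bp inside it, which the rule leaves out, had 0.786 and 0.795. A footprint lay in 75.9% and 69.5% of the 901 and 731 members just outside the limit and in 70.0% and 58.1% of the 1219 and 1070 peaks just inside it. Members in hosts of 90 to under 100 kb had 0.824 and 0.918, and intronic peaks of hosts of 100 to under 110 kb had 0.791 and 0.849, with footprints in 84.7% and 78.1% of the former and 82.6% and 75.1% of the latter.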

How the data were processed

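DNase-seq was measured in cerebellum of 2 mice, 1 library each. The authors deposited, for each animal, a larger and a smaller peak list, footprints, and stretches with a false discovery rate below 0.05, on mm10 per the labels; the aligner and callers are not given in these sources. The deposited peak height is a signal, used within an animal's list. The false discovery rate and the footprint entry are p-value types in the deposited files, and the footprint entry is 0.01 in every line, so footprints were used by position. The depth is unknown, and no interval was computed. The larger list was used, with peaks called per animal.

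Members were found with GENCODE M21 on GRCm38, whose chromosome lengths matched the reference sequence. Eligible bases met the same rule as midpoints. Intron order came from 1 transcript per gene, the APPRIS principal one and then the longest coding sequence. A member had a footprint when they overlapped by at least 1 bp. Motifs were searched in 151 bases on both strands: the NFI core TTGGCA, the NeuroD E-box CAGATG, the E-box CAGCTG, AP-1 (TGANTCA), CRE (TGACGTCA), ZIC (CAGCAGG), ETS (CCGGAAG), SP/KLF (GGGCGG), RFX (GTTGCCA), ROR/ERR (AAGGTCA), SOX (ACAATGG), homeobox (TAATTA) and EGR (GCGTGGGCG), and by name NFI, MEF2, CTCF core, CTCF short core and NRF1. The core TTGGCA is part of the NFI consensus, and both CTCF motifs overlap. Printed sequences were read from the GRCm38 genome. Python 3.11.15, pandas 2.3.3, NumPy 2.4.6 and bedtools 2.31.1 were used. The assignment code was run on simulated points of 1 chromosome: 500 of 500 were given their class and intron. The points were drawn from the same gene models, so this checks the code only. It cannot show an error in the annotation or in the choice of transcript.

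The genes named were the hosts of the 6 strongest first-intron and 6 strongest later-intron members that both animals share and that lie in 1 host (best mean rank of height), the 8 hosts with the most members, the 5 with the most per kb among those with at least 5 in both animals, and, per list, the 2 hosts with the most members and the first by alphabet with none; 1 of the 6 later-intron members is not reported here. Other listed genes, such as Etv1, Slc17a7, Gabra6, Barhl1, Uncx, Shank3, Snap25 and Nr4a2, were named after their values were seen. The members and lists were chosen with earlier results of these data known. Alternatives covered the peak list, exons, starts, host length, first intron, distance, footprint and overlap.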

Additional observations from a re-analysis of the deposited data

How the results depend on the processing

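The number of members was 10917 with the smaller peak list and 9241 with host genes shorter than 50 kb, against 17267, as fewer peaks or introns entered, and ranged from 15095 to 19438 when 1 animal was left out. The percent in first introns was 34.2 with the smaller list, 31.3 over 2 kb from starts, 37.4 in hosts under 50 kb, 44.0 when the first intron of any transcript counted, and 35.1 also over 1 kb from RefSeq mRNA starts, an alternative chosen after seeing the data (36.0 to 36.3 with 1 animal left out). The density ratio of first to later introns stayed above 1 under each alternative run: 1.39 with the smaller list, 1.37 over 2 kb from starts, 1.59 in hosts under 50 kb, 1.497 on autosomes, 1.47 for the first intron of any transcript and 1.48 away from RefSeq starts. By distance it was 1.73, 1.41, 1.34, 1.49 and 1.47 from the nearest class to the farthest (1.51 to 1.53 with 1 animal left out). The height ratio reversed to 1.13 at 20 to 100 kb; it was 0.987 over 2 kb from starts, 0.911 in hosts under 50 kb, 0.943 on autosomes, 0.955 for any transcript, 0.936 away from RefSeq starts, and 0.927, 0.930, 0.826 and 0.946 in the other distance classes (0.938 to 0.942 with 1 animal left out); the cause was not tested. The percent with a footprint was 91.3 with the smaller list and 96.7 above the median height (79.0 to 83.9 with 1 animal left out). The first minus later difference in it was -0.710 over 2 kb from starts, -3.44 in hosts under 50 kb and -1.88 above the median height (-3.15 to -2.10). The percent shared was 92.1 above the median height (63.2 to 81.4). The other 42 of 76 values moved by less than the spread between the animals, or for counts by less than 1.5 times. These 42 include the values with 1 animal left out. Apart from counts, those move by less than the SD whenever there are 2 animals, so they show no stability. The smaller number of peaks in replicate 2, and an unknown depth, limit what sharing between animals shows. No paired analysis was possible because 1 group leaves no samples to pair between groups; the ratios and differences of first and later introns are themselves paired within each animal.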

Other observations

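The heptamer GGTGCCA was chosen because it was seen in the printed sequences, where it lay wholly inside shared footprints in 4 of the 5, all but Ttyh2. That count is how it was chosen and supports nothing. In the 151 bases around the midpoint it was found in 5.55% and 5.47% of members in replicates 1 and 2, and in 1.55% of intron windows outside peaks. Intronic peaks of long genes had it in 5.77% and 5.60%, and promoter peaks in 3.22% and 2.80%. Its share rose with height, from 4.09% and 4.82% below the 25th percentile of height to 7.63% and 8.91% between the 90th and 99th percentile. The class above the 99th percentile is not given, since it holds the members that prompted the search. The median GC content rose in the same classes, from 53.6% and 51.0% to 57.6% and 57.0%, and its part in the shares was not tested. Of 1253 and 978 occurrences in whole members, 45.6% and 40.0% had their centre in a footprint. This count includes the printed copies, and the share in other peaks is not given, so it shows no preference for footprints.

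Motifs differed in how their shares changed with height. The ZIC motif rose from 10.5% and 10.2% of members below the 25th percentile to 19.9% and 19.5% between the 90th and 99th percentile, but was in 11.1% and 13.0% of the 27 and 23 members above the 99th. The SP/KLF box rose from 6.36% and 4.96% to 15.6% and 15.8%. The CTCF core rose from 0.256% and 1.07% to 2.40% and 2.86% between the 75th and 90th percentile, and the animals disagreed between the 90th and 99th, with 2.51% and 1.25%. The NFI core TTGGCA showed no steady course, with 13.6% and 19.5% below the 25th percentile and 17.8% and 18.1% between the 90th and 99th percentile. Another peak midpoint lay within 1 kb of 41.5% and 32.7% of members, with 47.1% and 40.1% in first introns and 38.1% and 28.5% in later introns. The share was 34.1% and 30.7% for intronic peaks of long genes, 33.7% and 30.7% for intergenic peaks, 51.3% and 42.0% for exon peaks and 79.5% and 76.7% for promoter peaks.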
